A study of Mus musculus with 2 samples.

Results

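The 8 genes described here were 4 cadherins, Cdh1 (E-cadherin), Cdh2 (N-cadherin), Cdh6 and Cdh11, 3 transcription factors, Snai1, Zeb1 and Zeb2, and Vim (vimentin), out of 18131 genes measured in single cells of the mouse cardiac neural crest region at E9.5. They were chosen by name as regulators and readouts of epithelial-to-mesenchymal transition (EMT). The study asked what loss of Prdm6 in the Wnt1 lineage does to cardiac neural crest cells (NCCs). Each genotype was sequenced as 1 library. Embryos of the WT library had the genotype Prdm6+/+; Wnt1-Cre2; ZsGreen1, those of the KO library were Prdm6f/f; Wnt1-Cre2; ZsGreen1, and all were of strain C57BL/6. Both genotypes carried the Wnt1-Cre2 driver, which makes Cre in the Wnt1 lineage, and the ZsGreen1 reporter, so by genotype they differed in the floxed Prdm6 alleles. The paper describes batch effects seen by eye between the conditions, and it balanced its graph of neighbouring cells for them. The values used here carry no such correction. With 1 library per genotype, batch and genotype cannot be told apart. The dissected tissue ran from the middle of the otic placode to the back of the 4th somite, several embryos were pooled, and no sort was described. Although both libraries carry the label of cardiac neural crest cells, most typed cells carried markers of other cell types. Recombination of Prdm6 was not measured by cell class here.

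In EMT, epithelial cells loosen their junctions and become motile, and neural crest cells pass through it when they leave the dorsal neural tube. Cadherins hold cells together by pairing with cadherins on the neighbouring cell, and cells often exchange one cadherin for another as they change state. Snai1, Zeb1 and Zeb2 are zinc finger repressors that bind E-box sequences in the regulatory regions of junction genes, of which Cdh1 is the best known. Vimentin is the intermediate filament of mesenchymal cells and of neural progenitors.

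Unique molecular identifier (UMI) counts were recovered from the deposited values. There were 11958 WT cells (median depth 1597 UMIs) and 9765 KO cells (median depth 1703 UMIs). The libraries shared 26 cell barcodes. Prdm6 itself had 104 UMIs in WT (5.00 UMIs per 1000000 UMIs, CPM) and 59 in KO (3.12 CPM). Cells were typed by marker genes, none of them a member, into 14 classes, of which 10 held at least 50 cells in each library. Together the 14 classes took 39.9% of WT and 37.0% of KO cells, and the rest stayed ungated. The alpha-like globin gene Hba-x, which marks erythroid cells and can leak from them, had a median over the other 9 classes of 1402 CPM in WT and 599 CPM in KO. This was 4.01% of its erythroid level in WT and 1.93% in KO, and erythroid-like cells made up 3.73% of WT and 1.96% of KO cells. The part of such stray RNA in the differences below was not tested. With 1 library per genotype there is no test and no replicate check: all intervals are at 95% and cover counting error only.

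Over all cells, none of the 8 genes differed between KO and WT by 0.5 or more on the log2 scale, with levels set by total UMIs. Among 10513 genes with at least 200 UMIs, 0.666% were higher and 3.34% were lower in KO by this much. The median log2 ratio of KO over WT was 0.06 for the 8 genes and −0.06 for all genes. The interval lay above 0 for 4 members, against 16.9% of all genes, and below 0 for 1 member, against 29.1% of all genes.

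Among the cadherins, Cdh1, the adhesion molecule of epithelia, had 11.5 CPM in WT (10.1 to 13.1) and 15.6 CPM in KO (13.9 to 17.5). These intervals did not overlap, and the log2 ratio was 0.44 (0.19 to 0.69). It was 0.50 when the libraries were scaled by a trimmed mean of log ratios and 0.49 by a median of ratios, at the limit of 0.5. After thinning each cell to 1000 UMIs the ratio was 0.14, a setting that also drops 1361 shallower cells in WT and 125 in KO. Cdh2, the cadherin of neural tube, muscle and mesenchyme, had 293 CPM in WT (286 to 300) and 306 CPM in KO (298 to 314), a log2 ratio of 0.06 (0.01 to 0.12). Cdh6, a type II cadherin of the neural crest, kidney and hindbrain, had 49.3 CPM in WT (46.3 to 52.4) and 56.3 CPM in KO (53.0 to 59.8), with a log2 ratio of 0.19 (0.07 to 0.32). Cdh11, a type II cadherin of mesenchyme, had 135 CPM in WT (130 to 141) and 156 CPM in KO (151 to 162), with a log2 ratio of 0.21 (0.13 to 0.28). The 4 cadherins were thus each higher in the KO library, with separate intervals for Cdh1, Cdh6 and Cdh11 and overlapping ones for Cdh2.

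The transcription factors lay closer together in both libraries. Snai1 had 19.1 CPM in WT (17.2 to 21.0) and 18.5 CPM in KO (16.6 to 20.5), a log2 ratio of −0.04 (−0.26 to 0.17). Zeb1 had 66.2 CPM in WT and 67.6 CPM in KO, a log2 ratio of 0.03 (−0.08 to 0.14), and Zeb2 had 114 CPM in WT and 119 CPM in KO, a log2 ratio of 0.06 (−0.02 to 0.14). A difference in these 3 genes was not detectable at this depth. Vim had 553 CPM in WT (543 to 563) and 477 CPM in KO (467 to 487), and was the member whose interval lay below 0, with a log2 ratio of −0.21 (−0.25 to −0.17). Of the 8 ratios, only that of Cdh1 lay outside the range from −0.44 to 0.30 that ran from the 5th to the 95th percentile of all genes.

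Each member had its own order of levels over the 10 classes.

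**Figure D1:**
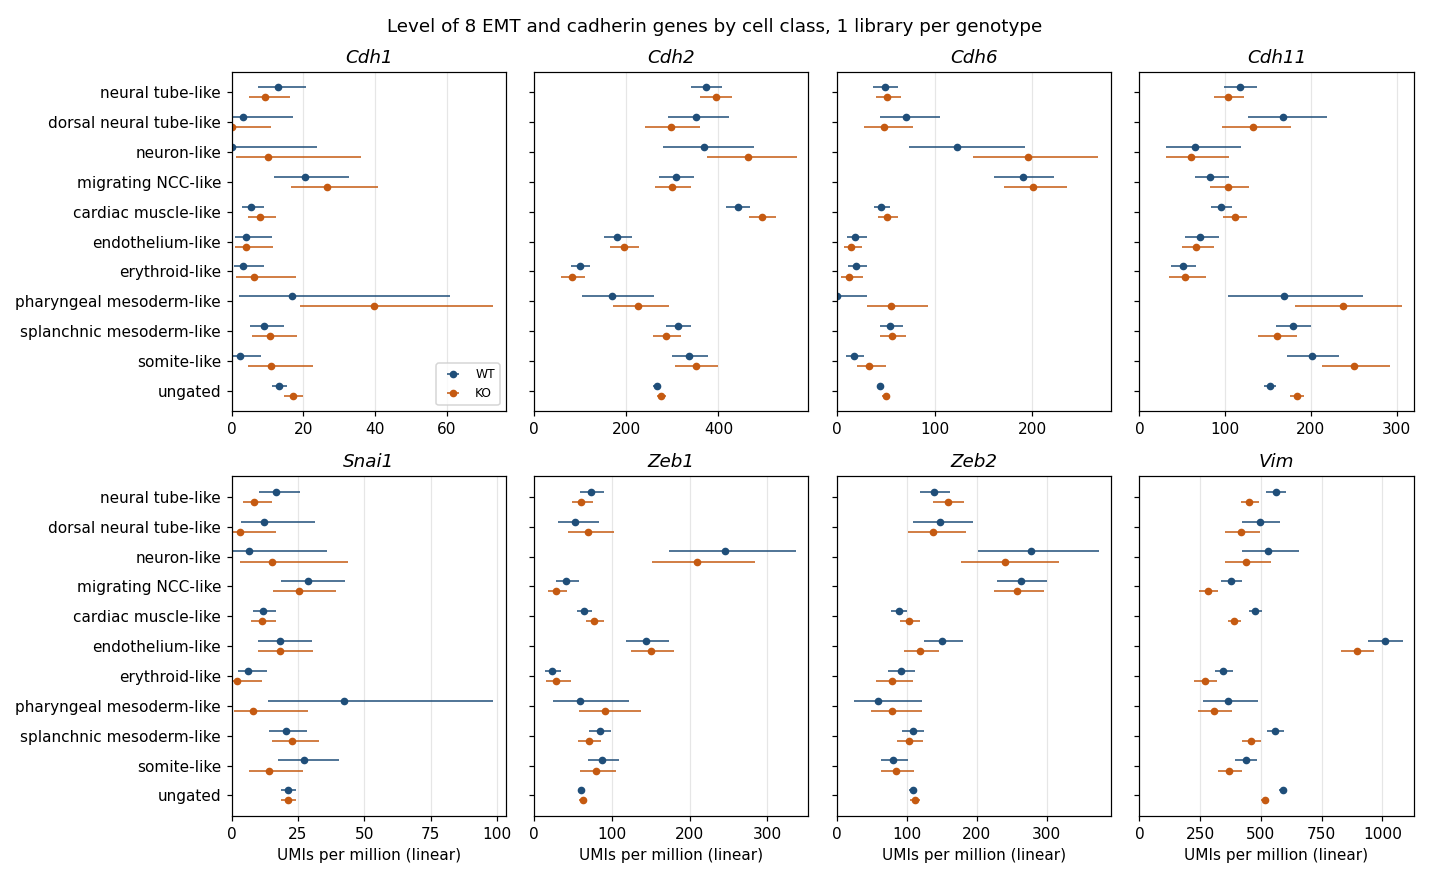
Level of the 8 genes in 10 marker-gated cell classes and in ungated cells, in UMIs per 1000000 on linear axes that differ between genes. Points are the WT (blue) and KO (orange) libraries, 1 per genotype, and bars are exact Poisson intervals of 95% that cover counting error only. Cdh6 and Zeb2 stand out in migrating NCC-like and neuron-like cells, Zeb1 in neuron-like and endothelium-like cells, Vim in endothelium-like cells and Cdh2 in cardiac muscle-like cells.

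Cdh2 was broadly present. Its level was highest in cardiac muscle-like cells, at 442 CPM in WT (417 to 469) and 495 CPM in KO (466 to 525). In WT the next classes were neural tube-like cells at 373 CPM and neuron-like cells at 368 CPM, and in KO they were neuron-like cells at 465 CPM and neural tube-like cells at 394 CPM. Neighbouring classes in this order overlapped except in WT below cardiac muscle-like cells and below migrating NCC-like cells (307 CPM), and in KO below endothelium-like cells. Erythroid-like cells had the lowest Cdh2, at 99.5 CPM in WT (80.7 to 121) and 81.1 CPM in KO (58.0 to 110), below endothelium-like cells, at 180 CPM and 194 CPM. After thinning, 32.7% of WT and 35.3% of KO cardiac muscle-like cells had a Cdh2 UMI, against 9.05% and 5.24% of erythroid-like cells, which serve as the background class.

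Cdh6 was the member with the largest share of its UMIs in the migrating neural crest. Migrating NCC-like cells, gated on markers that include Sox10, Foxd3, Erbb3 and Tfap2b, had 190 CPM in WT (161 to 222) and 201 CPM in KO (171 to 235). Neuron-like cells followed with 123 CPM in WT (73.9 to 192) and 195 CPM in KO (139 to 267), and these intervals overlapped those of the migrating cells. The next class held 70.3 CPM in WT (dorsal neural tube-like) and 56.0 CPM in KO (splanchnic mesoderm-like). The migrating NCC-like cells carried 15.4% of all Cdh6 UMIs in WT and 14.8% in KO while holding 4.01% and 4.15% of all UMIs. After thinning, a Cdh6 UMI was found in 13.7% (WT) and 15.8% (KO) of the migrating NCC-like cells. Erythroid-like cells gave 2.26% and 1.05%.

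Cdh11 was highest in somite-like cells over both libraries, with pharyngeal and splanchnic mesoderm-like cells close by. Somite-like cells had 201 CPM in WT (172 to 233) and 250 CPM in KO (213 to 292). Pharyngeal mesoderm-like cells had 169 CPM and 238 CPM, and splanchnic mesoderm-like cells had 179 CPM and 160 CPM. The dorsal neural tube-like cells, at 168 CPM in WT and 132 CPM in KO, lay among these classes, whereas migrating NCC-like cells had only 82.8 CPM in WT (64.4 to 105) and 103 CPM in KO (81.9 to 128). Other cells of mesodermal origin held less, at 95.1 CPM and 111 CPM in cardiac muscle-like, 71.1 CPM and 66.5 CPM in endothelium-like and 50.3 CPM and 52.7 CPM in erythroid-like cells. Neighbouring classes overlapped along the whole order in both libraries. With gates set on thinned cells, the dorsal neural tube-like class led.

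Among the zinc finger factors, Zeb2 shared its leading classes with Cdh6. It had 278 CPM in WT neuron-like cells (201 to 374) and 263 CPM in WT migrating NCC-like cells (229 to 300). In KO, migrating NCC-like cells had 258 CPM (224 to 296) and neuron-like cells 240 CPM (177 to 318). These 2 classes overlapped in each library, and in WT they stood clear of endothelium-like cells, the next class, at 150 CPM (124 to 180). Over the 20 points given by 10 classes in 2 libraries, the log2 levels of Zeb2 and Cdh6 had a Pearson correlation of 0.82, the highest for Cdh6 among 10512 genes. The points share libraries, and the weight of the pair of highest classes in this correlation was not tested, so it is a description.

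Zeb1 differed from Zeb2 in the neural crest. Neuron-like cells had 246 CPM of Zeb1 in WT (174 to 337) and 210 CPM in KO (151 to 284), and endothelium-like cells had 144 CPM (118 to 173) and 150 CPM (124 to 180). Migrating NCC-like cells held 40.8 CPM in WT (28.2 to 57.0) and 28.0 CPM in KO (17.5 to 42.4), close to the 22.6 CPM and 28.4 CPM of erythroid-like cells, with which their intervals overlapped. Relative to the other classes, both Zeb genes were thus high in neuron-like cells, whereas in migrating NCC-like cells Zeb2 was high and Zeb1 low.

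Snai1 was scarce throughout. Among the 10 compared classes, the highest WT level was 42.2 CPM in pharyngeal mesoderm-like cells (13.7 to 98.5), from 5 UMIs, and the highest KO level was 25.5 CPM in migrating NCC-like cells (15.5 to 39.3), from 20 UMIs. Migrating NCC-like cells were second in WT, at 28.8 CPM (18.4 to 42.8), followed by somite-like cells, at 27.2 CPM (17.4 to 40.5). Erythroid-like cells had the lowest level, at 6.16 CPM in WT and 2.03 CPM in KO. Outside these classes, the arch NCC mesenchyme-like cells, too few to compare (40 WT, 68 KO), held 18.8 CPM in WT (2.27 to 67.8), from 2 UMIs, and 72.5 CPM in KO (38.6 to 124), from 13 UMIs. Every compared class overlapped with its neighbour, so the full order of Snai1 was not resolved at this depth. Migrating NCC-like cells did lie above erythroid-like cells, whose intervals ended at 13.4 CPM in WT and 11.3 CPM in KO. They also lay above cardiac muscle-like cells in WT (7.82 to 16.6) and neural tube-like cells in KO (4.26 to 15.3).

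Vim was highest in endothelium-like cells, at 1012 CPM in WT (942 to 1085) and 894 CPM in KO (828 to 964), well above the next class in each library. That class was neural tube-like cells in WT, at 561 CPM (521 to 604), and splanchnic mesoderm-like cells in KO, at 460 CPM (423 to 500). The lowest levels were 345 CPM in WT and 270 CPM in KO, both in erythroid-like cells. Migrating NCC-like cells were near the bottom, at 377 CPM in WT (336 to 421) and 283 CPM in KO (247 to 322). After thinning, 61.5% of WT and 58.4% of KO endothelium-like cells had a Vim UMI, and 29.9% and 24.6% of erythroid-like cells did.

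Cdh1 had too few UMIs for a full order of the classes, each of which overlapped with its neighbour. It ranged from 0 to 20.4 CPM over the WT classes and from 0 to 39.6 CPM over the KO classes, and 59.8% of its UMIs in WT and 60.0% in KO lay in ungated cells, which held 52.1% and 54.5% of all UMIs. Some classes further apart did separate. Migrating NCC-like cells, with Cdh1 at 20.4 CPM in WT (11.9 to 32.7) and 26.7 CPM in KO (16.5 to 40.9), lay above cardiac muscle-like cells, at 5.41 CPM (2.96 to 9.08) and 7.76 CPM (4.52 to 12.4). The 3 epithelial classes and the arch NCC mesenchyme-like class were too small to compare, with between 11 and 81 cells in a library, but their levels can be given. Endoderm-like cells had 77.8 CPM of Cdh1 in WT (41.4 to 133) and 111 CPM in KO (60.4 to 186). Surface ectoderm-like cells had 61.0 CPM in WT (16.6 to 156) and 130 CPM in KO (66.9 to 226), and the 11 otic placode-like cells of each library had 0 and 2 UMIs. The arch NCC mesenchyme-like cells had 253 CPM of Cdh11 in WT (167 to 369) and 223 CPM in KO (159 to 304).

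A wider epithelial gate was therefore added after the data were seen. It took any cell with at least 3 of the 7 epithelial genes Epcam, Krt8, Krt18, Cldn6, Cldn7, Esrp1 and Grhl2, and held 467 WT cells and 398 KO cells, 3.91% and 4.08% of all cells.

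**Figure D2:**
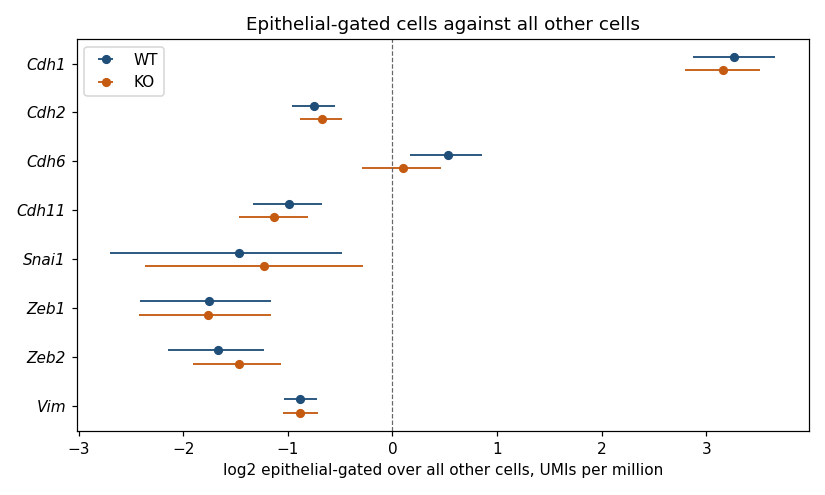
Log2 ratio of the level (UMIs per 1000000) in epithelial-gated cells over all other cells of the same library, for the 8 genes. Points are WT (blue, 467 gated cells) and KO (orange, 398 gated cells), and bars are exact intervals of 95% that cover counting error only. Cdh1 lies far to the right and Zeb1, Zeb2, Snai1, Cdh11, Vim and Cdh2 to the left of 0 in both libraries.

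In these cells Cdh1 was at 75.5 CPM in WT (60.3 to 93.4) and 95.4 CPM in KO (78.0 to 115), against 7.83 CPM and 10.7 CPM outside. The log2 ratio of inside over outside was 3.27 (2.87 to 3.66) in WT and 3.16 (2.80 to 3.51) in KO. The gate held 35.6% of the Cdh1 UMIs of each library. Zeb1 was the lowest relative to other cells, at 20.4 CPM inside and 68.8 CPM outside in WT, and 20.9 CPM and 70.5 CPM in KO, with log2 ratios of −1.75 and −1.76. Zeb2 had ratios of −1.67 in WT and −1.47 in KO, and Snai1, from 8 and 9 UMIs inside, of −1.47 and −1.23. All 3 repressors were thus scarcer inside this gate than outside it, in both genotypes and with intervals below 0. Of all genes with at least 200 UMIs, 12.9% in WT and 13.5% in KO had such an interval below 0 for this gate, and 12.8% and 13.8% had one above 0. The small endoderm-like class did not share this for Zeb2, which was at 77.8 CPM in WT (41.4 to 133) and 142 CPM in KO (84.2 to 225), beside 119 CPM and 124 CPM in all cells outside the epithelial gate.

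The other cadherins did not move as 1 group. Cdh11 had ratios of −0.99 and −1.13 and Cdh2 of −0.75 and −0.67, but Cdh6 had 0.53 (0.17 to 0.86) in WT and 0.10 (−0.29 to 0.46) in KO, at 69.3 CPM and 60.0 CPM inside. Vim had a ratio of −0.88 in each library and remained at 308 CPM in WT and 266 CPM in KO inside the gate. Between genotypes, Cdh1 inside the gate had a log2 ratio of KO over WT of 0.34 (−0.09 to 0.77), and the intervals of all 8 members included 0.

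The same question was asked cell by cell. Cdh1 had at least 1 UMI in 223 WT cells (1.86%) and 254 KO cells (2.60%), and after thinning in 1.15% and 1.26%. Endothelium-like cells, whose junctions use another cadherin, gave 0.615% and 0.372% after thinning, with a median depth of 2293.5 and 2824 UMIs, so a share of these single UMIs may be background. Cells with a Cdh1 UMI had 353 CPM of Epcam, an epithelial surface protein, in WT, against 58.0 CPM in cells without, and 331 CPM against 64.2 CPM in KO. Cdh1-positive cells held less Zeb1, with log2 ratios of −1.18 (−2.06 to −0.43) in WT and −1.01 (−1.69 to −0.41) in KO. Zeb2 had −1.13 (−1.76 to −0.57) and −0.61 (−1.04 to −0.21), and Cdh11 had −0.98 and −1.09. Vim had −0.55 (−0.77 to −0.34) and −0.63 (−0.84 to −0.43), yet 53.8% of WT and 50% of KO Cdh1-positive cells held a Vim UMI, beside 58.7% and 57.7% of all cells. Of all genes with at least 200 UMIs, 5.08% in WT and 7.33% in KO had an interval below 0 in this comparison. For Cdh6 and Snai1 the intervals included 0 in both libraries. Cdh2 was found together with Cdh1 in 60 WT cells and 104 KO cells, 26.9% and 40.9% of the Cdh1-positive cells, beside 36.6% and 39.3% of all cells. The Cdh1-positive cells, whose median depth was 1976 UMIs in WT and 2572.5 UMIs in KO, held less Cdh2 than the rest, with log2 ratios of −0.74 (−1.07 to −0.43) and −0.33 (−0.57 to −0.10). The level of Cdh2 in Cdh1-positive cells was 177 CPM in WT (141 to 220) and 245 CPM in KO (209 to 287), with a small overlap.

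The members were then followed along the path on which EMT takes place in this tissue, from dorsal neural tube-like cells (163 WT, 147 KO), gated on Wnt1, Wnt3a, Lmx1a, Rspo1, Olig3 and Zic5, to migrating NCC-like cells (357 WT, 284 KO). Msx1, kept out of the gates as a check, was highest of all classes in the dorsal neural tube-like cells, at 403 CPM in WT and 264 CPM in KO. Ets1, the check gene of the migrating cells, was at 161 CPM and 205 CPM there, the second highest class in both libraries.

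**Figure D3:**
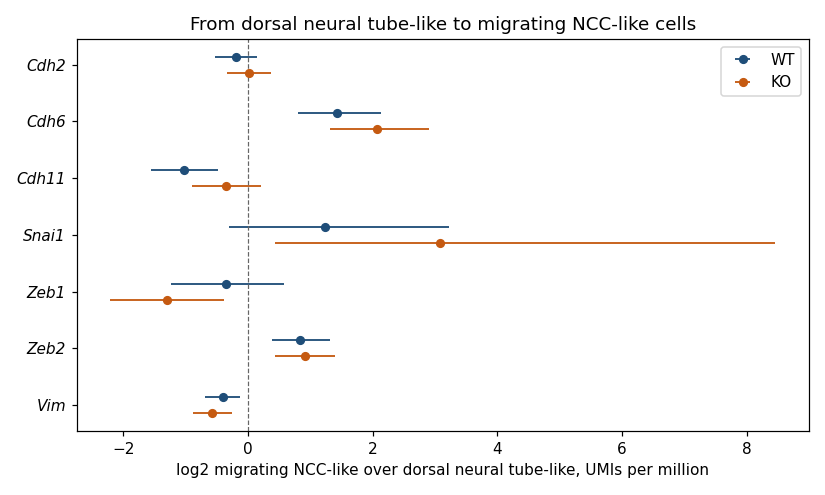
Log2 ratio of the level (UMIs per 1000000) in migrating NCC-like over dorsal neural tube-like cells for 7 genes, in the WT (blue) and KO (orange) libraries, with exact intervals of 95% that cover counting error only. Cdh1, at 1 and 0 UMIs in the dorsal cells, is not plotted. Cdh6 and Zeb2 lie above 0 and Vim below 0 in both libraries, while Cdh2 lies close to 0.

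Cdh6 was higher in the migrating cells, going from 70.3 CPM to 190 CPM in WT and from 47.9 CPM to 201 CPM in KO. Its log2 ratio of migrating over dorsal cells was 1.43 (0.80 to 2.13) in WT and 2.07 (1.32 to 2.91) in KO. Zeb2 went from 147 CPM to 263 CPM in WT and from 138 CPM to 258 CPM in KO, with ratios of 0.84 (0.39 to 1.32) and 0.91 (0.44 to 1.40). Of 4422 genes with at least 100 UMIs in these cells, 6.94% in WT and 6.63% in KO had an interval above 0, and 6.58% and 7.17% had one below 0. Cdh6 and Zeb2 were thus higher in the migrating cells of either genotype, and the WT and KO intervals of each overlapped.

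Cdh2 had similar values at both ends of the path, at 351 CPM and 307 CPM in WT and 297 CPM and 300 CPM in KO, with ratios of −0.19 (−0.52 to 0.14) and 0.02 (−0.33 to 0.37). Vim was lower in the migrating cells, with ratios of −0.40 (−0.68 to −0.12) and −0.57 (−0.88 to −0.25). For Cdh11 the WT ratio was −1.02 (−1.55 to −0.48), from 168 CPM to 82.8 CPM, and the KO ratio −0.35 (−0.90 to 0.21), from 132 CPM to 103 CPM. These 2 intervals overlapped, so a difference in the step between genotypes was not resolved. Zeb1 had ratios of −0.35 (−1.23 to 0.58) in WT and −1.30 (−2.21 to −0.39) in KO, which also overlapped.

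Snai1 was found in 4 WT and 1 KO UMIs in the dorsal cells and in 24 and 20 UMIs in the migrating cells, with ratios of 1.24 (−0.30 to 3.22) and 3.09 (0.44 to 8.46). The related EMT factors Snai2 and Twist1 were singled out here after their values were seen, and their intervals included 0 in both libraries. Snai2 had 48.9 CPM in dorsal and 25.2 CPM in migrating cells in WT, and 30.0 CPM and 26.7 CPM in KO. Twist1 had 144 CPM and 143 CPM in WT, and 141 CPM and 171 CPM in KO. Sox9, also among the EMT factors listed below, was much higher in the migrating cells. It went from 82.5 CPM to 815 CPM in WT, a ratio of 3.30 (2.75 to 3.92), and from 89.9 CPM to 602 CPM in KO, a ratio of 2.74 (2.21 to 3.33).

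Epithelial RNA was present in the migrating NCC-like gate. Epcam had 128 CPM there in WT and 149 CPM in KO, the highest of the 10 classes, and its log2 ratios over dorsal cells were 2.59 (1.49 to 3.93) and 3.64 (2.24 to 5.54). Cdh1 was higher in the migrating cells as well, with 1 WT and 0 KO UMIs in dorsal and 17 and 21 in migrating cells. Its ratio was 2.74 (0.07 to 8.12) in WT, and in KO the interval began at 1.15 and had no upper bound. A selection added after the data were seen took the 252 WT and 190 KO cells of the gate with a Sox10 UMI and without an Epcam UMI. Cdh1 had 3 UMIs there in WT and 10 in KO. These gave 4.98 CPM in WT (1.03 to 14.6) and 18.6 CPM in KO (8.92 to 34.2), beside 11.5 CPM and 15.6 CPM in all cells. In this selection Cdh6 was at 239 CPM in WT and 251 CPM in KO, Zeb2 at 326 CPM and 352 CPM, and Zeb1 at 46.5 CPM and 27.9 CPM. A cell with no Epcam UMI may still hold its RNA, since after thinning only 41.6% of WT and 39.7% of KO cells of the epithelial gate had one. The part of epithelial RNA in the levels of the migrating class was not tested. Pharyngeal mesoderm-like cells also held Epcam, at 110 CPM in WT and 99.1 CPM in KO, and their 10 KO Cdh1 UMIs lay in 5 cells. Mef2c, the check gene of that class, was at 144 CPM in WT and 151 CPM in KO, rank 3 of the classes in both. The part of epithelial RNA in the levels of that class was not tested either.

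Regulatory sequence could be read for Cdh6 and Snai1, the neural crest cadherin and the scarcest of the 3 repressors, from the RefSeq promoter windows of build GRCm38.p6. The 250 bases before the transcription start are shown in lower case, 5′ to 3′ on the strand of the gene, with the E-box CACCTG or its reverse complement CAGGTG in capitals, a motif that Snail and Zeb proteins bind. The Snai1 window lies at chr2:167537945-167538194 on the plus strand and the Cdh6 window at chr15:13173676-13173925 on the minus strand.
Snai1: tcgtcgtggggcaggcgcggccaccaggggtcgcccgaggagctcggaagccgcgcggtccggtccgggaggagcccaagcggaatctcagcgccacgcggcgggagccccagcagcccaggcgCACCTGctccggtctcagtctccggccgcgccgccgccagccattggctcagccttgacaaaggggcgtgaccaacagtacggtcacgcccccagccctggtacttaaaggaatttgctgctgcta
Cdh6: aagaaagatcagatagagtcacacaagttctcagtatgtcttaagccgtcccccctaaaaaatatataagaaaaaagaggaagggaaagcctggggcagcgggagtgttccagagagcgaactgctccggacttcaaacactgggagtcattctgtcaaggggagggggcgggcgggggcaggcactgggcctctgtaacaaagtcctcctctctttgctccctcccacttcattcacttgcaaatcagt
The Snai1 window held 1 E-box, 126 bases before the start, and the Cdh6 window held 0. Of 32851 promoter windows of this length, 17.2% held at least 1. Windows were found for 4 of the 8 members, and the Vim and Zeb2 windows also held 0. Snai1 lies on chromosome 2 from 167538195 to 167542814 (plus strand, GRCm38) and Cdh6 on chromosome 15 from 13028701 to 13173675 (minus strand).

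The genotypes were next compared with the cell class held fixed. Of 74 ratios of KO over WT for a member in a class, 9 had an interval that excluded 0, and 7 of these belonged to Vim. All 9 were among the 41 ratios with at least 100 UMIs, 22.0% of them, and over all genes with as many UMIs 20.8% of the ratios within a class excluded 0, so the members as a group were near the background.

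**Figure D4:**
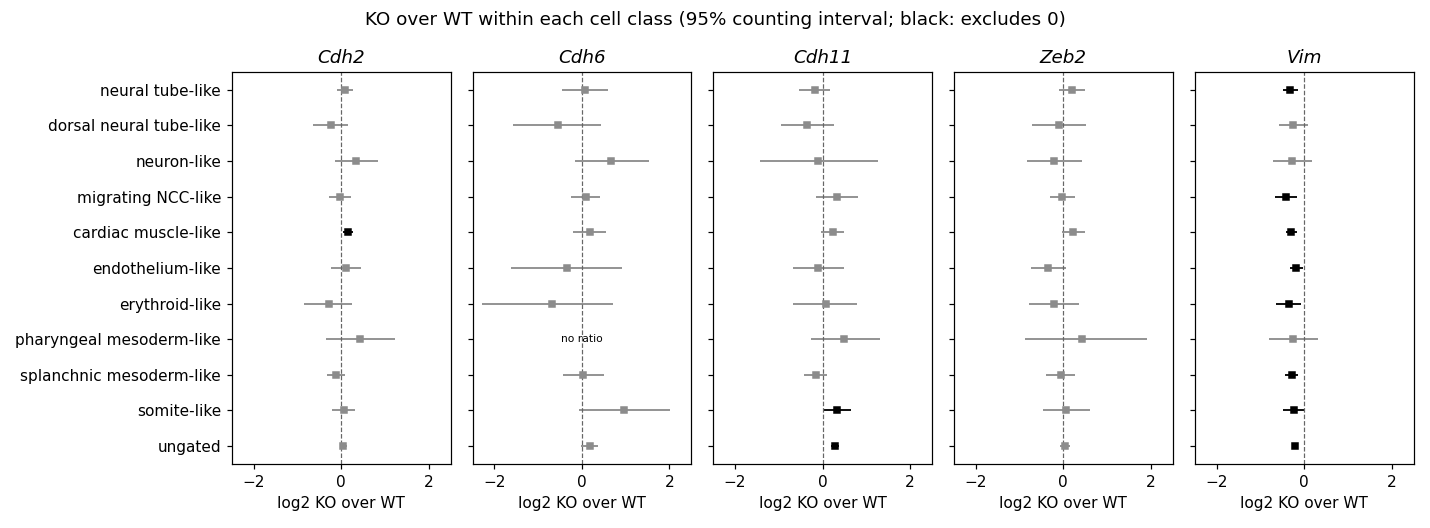
Log2 ratio of KO over WT within 10 cell classes and in ungated cells for 5 genes, with exact intervals of 95% that cover counting error only. Black squares have an interval that excludes 0, and no ratio is drawn where WT had 0 UMIs. Vim lies to the left of 0 in every class, whereas the other genes lie on both sides.

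Vim was lower in KO in 10 of 10 classes, with ratios between −0.42 and −0.18 and a median of −0.28. The classes share the same 2 libraries, so they are not separate repeats of the comparison. The share of all genes with the same direction in every class was not computed. The ratio of Vim was −0.42 (−0.67 to −0.16) in migrating NCC-like cells, in which 9.03% of all genes with at least 100 UMIs had an interval below 0. It was −0.31 (−0.47 to −0.15) in neural tube-like cells, where 10.1% of genes did, and −0.29 (−0.41 to −0.16) in cardiac muscle-like cells, where 13.9% did.

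The remaining intervals below 0 were found in endothelium-like cells, with −0.18 (−0.33 to −0.03) against 8.79% of genes, erythroid-like cells, with −0.35 (−0.65 to −0.06) against 9.78%, splanchnic mesoderm-like cells, with −0.28 (−0.43 to −0.13) against 9.59%, and somite-like cells, with −0.24 (−0.48 to −0.00) against 9.23%. In dorsal neural tube-like, neuron-like and pharyngeal mesoderm-like cells the ratios were −0.25, −0.27 and −0.25 with intervals that included 0, and 6.30%, 7.08% and 6.08% of all genes lay below 0 there. Ungated cells gave −0.20 (−0.25 to −0.14). None of the Vim ratios lay outside the middle range of genes in its class, whose 5th percentile was between −0.55 and −0.46. In somite-like cells the direction turned when 1 more marker was required (0.02) and when cells were thinned before gating (0.33), and in neuron-like cells it turned under the first of these (0.10). Thinning before gating gave smaller Vim differences in endothelium-like (−0.03), neural tube-like (−0.17) and splanchnic mesoderm-like cells (−0.19). The same setting gave −0.42 in migrating NCC-like, −0.34 in cardiac muscle-like and −0.85 in erythroid-like cells.

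Outside Vim, 2 of the 74 ratios had an interval that excluded 0. Cdh2 in cardiac muscle-like cells had a ratio of 0.16 (0.04 to 0.28), where 11.4% of all genes lay above 0. Cdh11 in somite-like cells had a ratio of 0.32 (0.00 to 0.64), where 10.5% of genes lay above 0, and this turned to −0.23 when cells were thinned before gating. Cdh11 was split over the classes, higher in KO in 5 and lower in 5, with a median of −0.01. Ungated cells had 152 CPM of Cdh11 in WT (145 to 159) and 184 CPM in KO (176 to 192), a ratio of 0.28 (0.18 to 0.37). The ratio was no smaller in somite-like (0.32), migrating NCC-like (0.32) and pharyngeal mesoderm-like cells (0.49), from fewer UMIs. The difference over all cells is thus not placed in the ungated cells alone. Cdh1 was higher in KO in 5 of the 6 classes with a ratio, with a median of 0.46, and each of these intervals included 0, while ungated cells gave 0.38 (0.05 to 0.71). The ungated cells held 58.5% of the Cdh11 UMIs in WT and 64.2% in KO.

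Cdh6 had 0 UMIs in the 58 WT pharyngeal mesoderm-like cells, whose interval reached 31.2 CPM, and 14 UMIs in the 106 KO cells, at 55.5 CPM (30.3 to 93.1). No ratio is given against 0 UMIs, but the interval of the log2 ratio began at 0.64 and had no upper bound. It was higher in KO in 6 of the 9 classes with a ratio, with a median of 0.07, and the interval of each of these 9 included 0. Zeb1 and Zeb2 lay on both sides of 0, with 5 of 10 and 4 of 10 classes higher in KO and a median of −0.04 each. Snai1 was lower in KO in 7 of 9 classes, with a median of −0.95, yet no interval excluded 0, and the ungated cells had 21.1 CPM in WT and 21.4 CPM in KO.

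In migrating NCC-like cells in particular, the KO over WT ratio was −0.03 (−0.29 to 0.23) for Cdh2, 0.09 (−0.24 to 0.41) for Cdh6, −0.02 (−0.31 to 0.26) for Zeb2 and 0.32 (−0.16 to 0.80) for Cdh11. It was −0.54 (−1.39 to 0.27) for Zeb1, −0.18 (−1.11 to 0.74) for Snai1 and 0.39 (−0.60 to 1.40) for Cdh1. With cells thinned before gating, the ratio turned to −0.59 for Cdh11 and moved to −0.41 for Zeb2. Under that setting Cdh2 gave 0.04 and Cdh6 −0.10. In the Sox10-positive, Epcam-negative cells the ratio of Vim was −0.27 (−0.57 to 0.03). That of Cdh1 there was 1.90 (−0.06 to 4.40), from 3 WT and 10 KO UMIs. A difference in cadherins or repressors between WT and KO migrating cells was not detectable at this depth.

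Further genes of EMT were taken as 5 lists. Of 13 EMT transcription factors, 10 had at least 200 UMIs, none was 0.5 or more from 0 on the log2 scale, and the median was −0.02, against −0.06 for all genes. The interval lay below 0 for 4 of them and above 0 for 1, Tcf4, against 29.1% and 16.9% of all genes. The 4 were Tcf3, Zfp703, Sox9 and Snai2, the last with a ratio of −0.21 (−0.34 to −0.08). Tcf4 and Tcf3, E-proteins that pair with other helix-loop-helix factors, had 366 CPM and 389 CPM, and 285 CPM and 242 CPM, in WT and KO. Sox4, a SoxC factor of progenitors and neurons, had 647 CPM in WT and 640 CPM in KO. Zfp703, a zinc finger corepressor, had a ratio of −0.27, and Sox9, a neural crest specifier, of −0.21, with its highest level in migrating NCC-like cells at 815 CPM in WT and 602 CPM in KO.

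Of 16 other cadherins, 15 were measured and 4 had at least 200 UMIs, again with none past 0.5 and a median of −0.00. The interval lay below 0 for 1 of these and above 0 for 0, against 29.1% and 16.9% of all genes. Cdh5, the cadherin of endothelium, had 909 CPM in WT and 831 CPM in KO endothelium-like cells. Cdh3 (P-cadherin) had a ratio of −0.28, Cdh4 (R-cadherin) of 0.14 and Cdh24 of 0.11. Of the 8 catenins and partners, which link cadherins to actin, 6 had at least 200 UMIs, none was past 0.5, and the median was −0.07. Intervals lay below 0 for 2 of the 6 and above 0 for 1, beside the same shares of all genes. Ctnnb1, beta-catenin, had 880 CPM in WT and 906 CPM in KO, Ctnna1 had 245 CPM and 240 CPM, and Ctnnd1, p120-catenin, had 131 CPM and 121 CPM. The largest ratios of this list were −0.18 for Vcl, vinculin, −0.12 for Ctnnd1 and −0.10 for Ctnnd2.

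Of 22 epithelial junction and keratin genes, 13 had at least 200 UMIs, with a median of −0.14, and 1 was past 0.5, lower in KO, as were 3.34% of all genes. This was Ocln, a tight junction protein, at 7.07 CPM in WT and 2.85 CPM in KO, with a ratio of −1.31 (−1.79 to −0.85) from 147 and 54 UMIs. Krt8, a keratin of simple epithelia, had 80.9 CPM and 64.3 CPM, its partner Krt18 had 85.0 CPM and 68.6 CPM, Tjp1, a junction scaffold, had 102 CPM and 105 CPM, and the claudin Cldn7 had a ratio of −0.31. The interval lay below 0 for 5 genes of this list and above 0 for 1, Epcam, at 64.7 CPM in WT and 73.2 CPM in KO, named after its value was seen, against 29.1% and 16.9% of all genes.

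Of 13 mesenchymal cytoskeleton and matrix genes, 12 had at least 200 UMIs, with a median of −0.16, and 2 were past 0.5, both lower in KO, against 3.34% of all genes. Col1a1, a chain of type I collagen, had 142 CPM in WT and 79.7 CPM in KO, a ratio of −0.84 (−0.93 to −0.75), and Tnc, the matrix protein tenascin C, had 33.2 CPM and 22.8 CPM, a ratio of −0.54 (−0.72 to −0.37). Acta2, smooth muscle actin, had 420 CPM and 313 CPM, a ratio of −0.42, Fn1, fibronectin, had 362 CPM and 354 CPM, and Sparc, a collagen-binding matrix protein, had 194 CPM and 182 CPM. The interval lay below 0 for 7 genes of this list, against 29.1% of all genes, and above 0 for 3, against 16.9%. These 3, named after their values were seen, were Nes (0.16, 0.07 to 0.25), Itgb1 (0.12, 0.05 to 0.19) and Lgals1 (0.18, 0.07 to 0.30). Vim lay near the median of this list.

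Genes whose levels over the 20 class and library points were most like those of each member were also listed. Cdh1 was most like Espn (0.85), Cldn7 (0.84) and Cdc23 (0.82), and Cdh2 like Impact (0.88), Bcl7c (0.86) and 1700025G04Rik (0.84). Cdh6 came after Zeb2 closest to Gm48855 and Ngfr, a nerve growth factor receptor of migrating neural crest, both at 0.82. Cdh11 was most like Zcchc11 (0.92), Pdgfrb, a receptor of mesenchymal and mural cells (0.90), and Zcchc3 (0.89). Snai1 was most like Pkdcc (0.85), Etl4 (0.84) and Ube2z (0.82), and Zeb1 like Klf7 (0.89), Ebf1 (0.88) and Nck1 (0.88). Zeb2 was most like Pax2, itself a gate marker (0.87), Hoxb8 (0.85) and Rtn1, a gene of neurons (0.84), and Vim like Gnai2 (0.88), Adam15 (0.86) and Map4k2 (0.85). Among the members themselves, Zeb1 and Vim had a correlation of 0.62, Cdh2 and Cdh6 of 0.60, Cdh11 and Zeb2 of −0.43 and Cdh1 and Vim of −0.45. Each is the leading value of many over points that share 2 libraries, and for sparse genes such as Cdh1 and Snai1 it rests on few UMIs.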

How the data were processed

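The deposited signal values are, per the methods of the authors, UMI counts from Cell Ranger 1.3.1 (3′ droplet libraries, told apart by MULTI-Seq) scaled to the total of each cell and square-root transformed, after removal of cells outside 200 to 6000 UMIs, of mitochondrial and ribosomal genes. The UMI limits served against doublets, as did DoubletFinder, whose place among the steps is not stated. The labels name build mm10, and the methods a human genome with the reporter. Squaring and dividing by the smallest nonzero square of the cell returned whole UMIs for 100% of values (tolerance 0.01), and 0 cells lay outside the limits. No doublet caller was run here. Cells were not assigned to embryos, so no p-value was computed.

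A cell joined the class with most distinct markers detected, among classes reaching their minimum of 2 to 4, and ties stayed ungated. Classes with under 50 cells in a library were not compared. Levels are summed UMIs per 1000000 with exact Poisson intervals, ratios have exact conditional intervals and shares exact binomial ones (95%). Both libraries at 3 UMIs or fewer gave no ratio. Thinning to 1000 UMIs left out 1361 WT and 125 KO cells. Correlations used log2(CPM + 10). The code (Python 3.11.15, numpy 2.4.6, scipy 1.17.1) was tested on simulated counts. Genes named were the 8 members, the 3 largest ratios and 3 most abundant genes of each list, and the 3 genes most like each member. Members, lists and gates were chosen with earlier results of these data known. Coordinates come from GENCODE vM21 and sequences from RefSeq (GRCm38.p6).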

Additional observations from a re-analysis of the deposited data

How the results depend on the processing

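No paired analysis was possible because each genotype had 1 library, and for the same reason no replicate could be left out. Of 359 values for a member in a class under another setting, 48 had the opposite sign, and 3 of these concerned a ratio whose interval excluded 0: Vim in somite-like cells with 1 more marker (0.02) or thinned before gating (0.33), and Cdh11 there when thinned (−0.23). Over all cells, scaling by a trimmed mean of log ratios or a median of ratios gave 0.50 and 0.49 for Cdh1, 0.12 for Cdh2 under both, and −0.15 and −0.16 for Vim. Thinned cells gave 0.14 for Cdh1, −0.08 for Zeb1 and −0.15 for Vim. Vim stayed lower in KO in 8 of 10 classes with 1 more marker, where 7 WT and 15 KO cells were left in the pharyngeal class, in 9 of 10 when thinned, and in 10 of 10 under the other 3 settings. Of the 9 intervals that excluded 0, 5 still did with 1 more marker, 6 with cells of exactly 1 class, 6 without the deepest 5% of cells, 8 with a median of ratios and 3 with gating on thinned cells. That last setting had 5 such intervals of 60 ratios in all and, by the level over both libraries, the same leading class for 4 of the 8 members: Cdh2, Cdh6, Zeb2 and Vim. Only 8 classes had enough cells there, so Zeb1 (neuron-like) and Cdh1 (pharyngeal mesoderm-like) had lost theirs. Without a UMI minimum, 2 EMT factors, 5 other cadherins, 1 catenin and 2 epithelial genes were past 0.5, and 21.3% of all genes were. Depth limits Cdh1 and Snai1 most.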
